A study of Caenorhabditis elegans with 2 samples.

Results

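The piRNA genes of Caenorhabditis elegans were examined for binding of MADF-3, a nematode protein with a MADF domain, a Myb-related DNA-binding domain. The members were all 15363 genes of biotype piRNA in the Ensembl annotation of the 6 nuclear chromosomes, of 46890 genes in all. Of these, 14714 lay on chromosome IV and 649 on the other chromosomes. Each was annotated as 21 bp long and was scored for a peak summit within 500 bp of its 5′ end. A gene with such a summit is one near binding, and nothing in the score says that the summit belongs to that gene.

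Binding was measured by chromatin immunoprecipitation and sequencing (ChIP-seq) with an antibody against GFP in whole worms of strain RW12241. Its allele st12241, made with CRISPR, joins the tags TY1, EGFP and 3xFLAG to madf-3 at its own place on chromosome II. Both samples came from young adults at 63 hours, synchronised by starving L1 larvae after bleaching, and they are biological replicates of 1 group. Whole worms mix all tissues, so binding in a small group of cells and weak binding in many cells cannot be told apart. The labels give no untagged or untreated group, and control libraries were not analysed here. The comparisons below are therefore between places in the genome and between the replicates. The deposited peak lists were filtered by the irreproducible discovery rate (IDR), which scores how well peaks keep their rank between compared sets. The series-wide thresholded list held 2741 peaks, against 962 and 863 in the lists of replicates 1 and 2. The series-wide ranked list, from before the threshold, held 113502 peaks. The lists hold no reads, so the depth behind each value is unknown, and the intervals below cover counting error only.

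piRNAs of C. elegans, also called 21U-RNAs, are germline small RNAs that begin with uracil and guide the Piwi protein PRG-1 to foreign and self transcripts. Most are made from tiny separate transcription units on chromosome IV, each read by RNA polymerase II. Many of these units carry the Ruby motif upstream, with the core letters CTGTTTCA, and depend on a factor complex that includes SNPC-4 and PRDE-1. That machinery covers the chromosome IV clusters as a domain. The labels give no link between MADF-3 and these genes.

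Of the piRNA genes on IV, 14162 began with T in the DNA (96.2%), against 622 on the other chromosomes (95.8%). CTGTTTCA stood on the gene's strand in the 100 bp upstream of 5164 of the 14714 genes on IV (35.1%) and of 45 of the 649 on the other chromosomes (6.93%), with a median start 46 bp upstream in both sets. The same letters were in the upstream 100 bp of 0.546% of protein-coding genes and in 0.365% of the 100 bp stretches of IV that lay more than 500 bp from a piRNA 5′ end. On either strand the shares were 37.1%, 7.40%, 0.806% and 0.701%. The shorter core GTTTCA, counted on the gene's strand, was upstream of 66.1% of the piRNA genes on IV, 33.3% of those elsewhere, 7.01% of protein-coding genes and 5.07% of the same stretches. The 6 letters are contained in the 8, so both counts share genes. The annotated set therefore carries the known marks of piRNA genes, more often on IV than elsewhere.

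The following lines show 9 of the piRNA genes nearest to the strongest summits, because they carry the values given further on and differ in the motif. Each line has 60 bases upstream and then the 21 bases of the piRNA, 5′ to 3′, from the RefSeq genome of assembly WBcel235 (ce11). Capitals mark GTTTCA.
21ur-15381 (chrIV:15895651-15895731, plus strand): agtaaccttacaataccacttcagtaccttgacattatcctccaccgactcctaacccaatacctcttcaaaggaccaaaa
21ur-11151 (chrIV:15530867-15530947, minus strand): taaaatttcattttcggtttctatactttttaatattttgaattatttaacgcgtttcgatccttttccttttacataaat
21ur-6915 (chrIV:15854622-15854702, plus strand): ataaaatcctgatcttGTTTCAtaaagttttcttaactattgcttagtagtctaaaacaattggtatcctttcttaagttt
21ur-53 (chrIV:16774887-16774967, plus strand): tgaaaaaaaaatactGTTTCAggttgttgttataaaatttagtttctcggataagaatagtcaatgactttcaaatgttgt
21ur-2814 (chrIV:16167578-16167658, plus strand): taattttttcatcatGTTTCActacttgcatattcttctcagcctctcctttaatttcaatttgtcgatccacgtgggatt
21ur-15698 (chrIV:14526061-14526141, minus strand): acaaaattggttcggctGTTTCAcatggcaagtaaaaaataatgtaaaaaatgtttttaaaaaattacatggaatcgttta
21ur-4820 (chrIV:15900538-15900618, minus strand): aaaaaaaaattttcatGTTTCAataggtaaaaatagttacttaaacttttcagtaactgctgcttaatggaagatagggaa
21ur-13751 (chrII:1320673-1320753, plus strand): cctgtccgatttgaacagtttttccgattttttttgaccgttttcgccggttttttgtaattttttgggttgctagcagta
21ur-9572 (chrIII:10807422-10807502, plus strand): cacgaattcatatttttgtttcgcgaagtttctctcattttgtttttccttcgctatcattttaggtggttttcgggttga
In 21ur-6915, 21ur-53, 21ur-2814, 21ur-15698 and 21ur-4820 the shorter core GTTTCA starts 43 to 45 bp upstream of the piRNA. Of these genes, just 21ur-53 and 21ur-15698 have the full CTGTTTCA. GTTTCA is absent from the 60 bases shown for 21ur-15381 and 21ur-11151, which had the strongest summits on IV. It is also absent from those of 21ur-13751 on II and 21ur-9572 on III. The lines are not a contrast of IV with other chromosomes. Among genes not shown, 21ur-14806 on II has GTTTCA 44 bp upstream and 21ur-5229 on IV has it 17 bp upstream. No match says only that these letters are not in the window.

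Chromosome IV held 2 piRNA clusters, defined here as runs of 100 kb bins with at least 50 piRNA genes each. Cluster 1 spanned 1.8 Mb (IV, 4800001 to 6600000) with 2658 piRNA genes among 355 protein-coding genes. Cluster 2 spanned 3.7 Mb (IV, 13600001 to 17300000) with 11510 piRNA genes among 460 protein-coding genes. The remaining 546 piRNA genes of IV lay outside both. GC content was 33.6% in cluster 1 and 32.3% in cluster 2, against 35.4% in the genome.

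Very few piRNA genes had a MADF-3 summit nearby, and the share was lower on IV than on the other chromosomes together. Of all 15363 piRNA genes 86 had one, 0.560% (0.448 to 0.691%, exact 95% binomial interval), where 4.59% of all annotated genes did. The annotated genes include the piRNA genes, and of the 31527 others 6.56% had one. On IV it was 69 of 14714 piRNA genes, 0.469% (0.365 to 0.593%), against 17 of 649 on the other chromosomes, 2.62% (1.53 to 4.16%). The intervals of IV and the other chromosomes did not overlap, but they count genes as independent. The 69 genes of IV shared 37 summits, so the intervals are too narrow. No test was made of this or any later difference between places, since neighbouring genes share summits and are not replicates.

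The low share held in both clusters and was not a property of every gene there. It was 0.527% in cluster 1 (14 genes), 0.426% in cluster 2 (49 genes) and 6 of 546 genes on IV outside the clusters (0.404 to 2.38%). Genes of other biotypes inside the same clusters had a summit in 100 of 1308 cases, 7.65% (6.26 to 9.22%). Protein-coding genes had one in 6.87% of cases in the clusters and in 7.06% of cases elsewhere on IV. Elsewhere in the genome the piRNA genes differed among chromosomes, with 5 of 98 near a summit on I, 5 of 109 on II, 4 of 78 on III, 3 of 202 on V and 0 of 162 on X. The 0 on X allows a share of up to 2.25% by the exact interval. Other gene classes in the genome lay between 1.27% for pseudogenes and 29.5% for snoRNA genes, with 27.3% for tRNA genes, 21.7% for snRNA genes and 8.05% for miRNA genes.

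Both replicates showed the same order in their own, shorter lists. On IV, 17 piRNA genes (0.116%) had a summit of the replicate 1 list and 13 (0.0884%) of the replicate 2 list, a mean of 0.102 ± 0.0192% (SD, n = 2). On the other chromosomes, 7 genes (1.08%) had one in each list. Over all genes the shares were 2.05% for replicate 1 and 1.85% for replicate 2. Without the piRNA genes they were 2.98% and 2.69%. Among the other genes of the IV clusters they were 3.98% and 2.98%, a mean of 3.48 ± 0.703% (SD, n = 2). In each replicate the piRNA genes of IV were thus below all genes, below piRNA genes elsewhere and below their non-piRNA neighbours. The SD of 2 lists does not cover the error of counts as small as 7 genes.

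**Figure D1:**
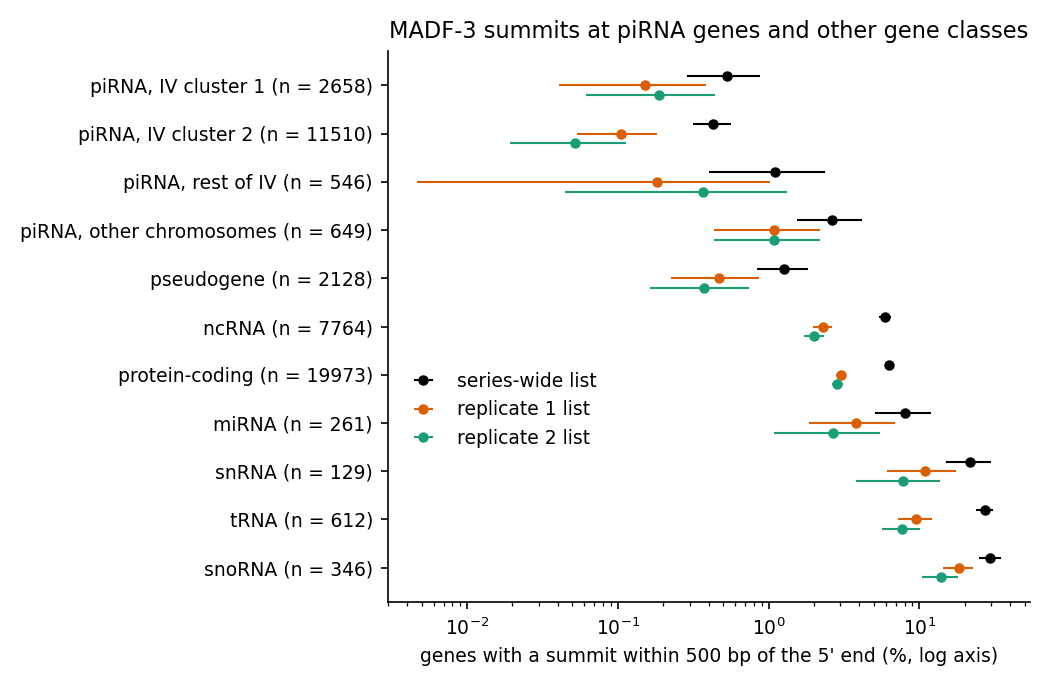
Percentage of genes with a thresholded summit within 500 bp of the 5′ end (log axis), for piRNA genes by place and for other gene classes, with exact 95% binomial intervals. Points are the series-wide list (black), replicate 1 (orange) and replicate 2 (green). piRNA genes of both clusters are at the left with 0.527% and 0.426% in the series-wide list, and tRNA and snoRNA genes at the right with 27.3% and 29.5%.

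Since the 500 bp windows of neighbouring piRNA genes overlap, summits were also counted per megabase of merged sequence. In the clusters, sequence within 500 bp of a piRNA 5′ end held 30 summits in 3.77 Mb, or 7.96 per Mb (5.37 to 11.4, exact 95% Poisson interval). The rest of the cluster sequence, between the piRNA genes, held 100 summits in 1.73 Mb, or 57.7 per Mb (47.0 to 70.2). The clusters as a whole held 23.6 per Mb, against 27.3 per Mb in the genome. So in the thresholded list the clusters as a whole were not far below the genome. The ranked list differed, with 3051 summits in the 5.5 Mb of the clusters, against 113502 in the 100 Mb of the genome. Of the 130 thresholded summits in the clusters, 100 lay in the gaps between piRNA genes. Their density there was above that of the 1 Mb flanks (32.3 per Mb) and of the rest of IV away from piRNA genes (28.8 per Mb). In replicate 1 the windows of all piRNA genes of IV held 2.37 per Mb and the cluster gaps 26.0 per Mb, and in replicate 2 they held 1.90 and 21.4 per Mb.

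On the other chromosomes no such depletion was seen in summits per Mb. Sequence within 500 bp of a piRNA 5′ end held 16 summits in 0.632 Mb there, or 25.3 per Mb (14.5 to 41.1), and sequence farther away held 27.5 per Mb. Counted by gene, the piRNA genes of the other chromosomes were also below their neighbours. A summit was near 2.62% of them, against 1710 of the 26537 other genes there (6.44%). The gaps in the IV clusters also held more protein-coding promoters, here the 500 bp on either side of a protein-coding 5′ end. Promoters took 11.5% of the piRNA windows in the clusters and 19.8% of the gaps. With promoters left out, the densities were 8.70 per Mb in the cluster windows and 36.7 per Mb in the gaps (27.3 to 48.2). Among intergenic sequence without promoters they were 6.66 and 45.7 per Mb, and among introns without promoters 9.18 and 28.2 per Mb.

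The density was graded by distance from the piRNA 5′ end in the series-wide list. Within 100 bp of a 5′ end the clusters held 1 summit in 1.84 Mb, 0.544 per Mb (0.0138 to 3.03). The density was 11.5 per Mb at 101 to 200 bp, 18.4 at 201 to 500 bp, 36.0 at 501 to 1000 bp and 38.5 at 1001 to 2000 bp. Beyond 2000 bp it was 76.9 per Mb (59.8 to 97.3), the highest of the 6 classes. Neither replicate's own list had a summit within 100 bp. In replicate 1 the density was 33.0 per Mb at 1001 to 2000 bp and 32.3 beyond 2000 bp, so the farthest class was not the highest, and in replicate 2 it was 13.8 and 30.1 per Mb. Without promoters the series-wide densities were 0.600, 11.8, 21.9, 31.3, 17.4 and 47.2 per Mb, so the order was broken at 1001 to 2000 bp, a class with 5 summits.

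**Figure D2:**
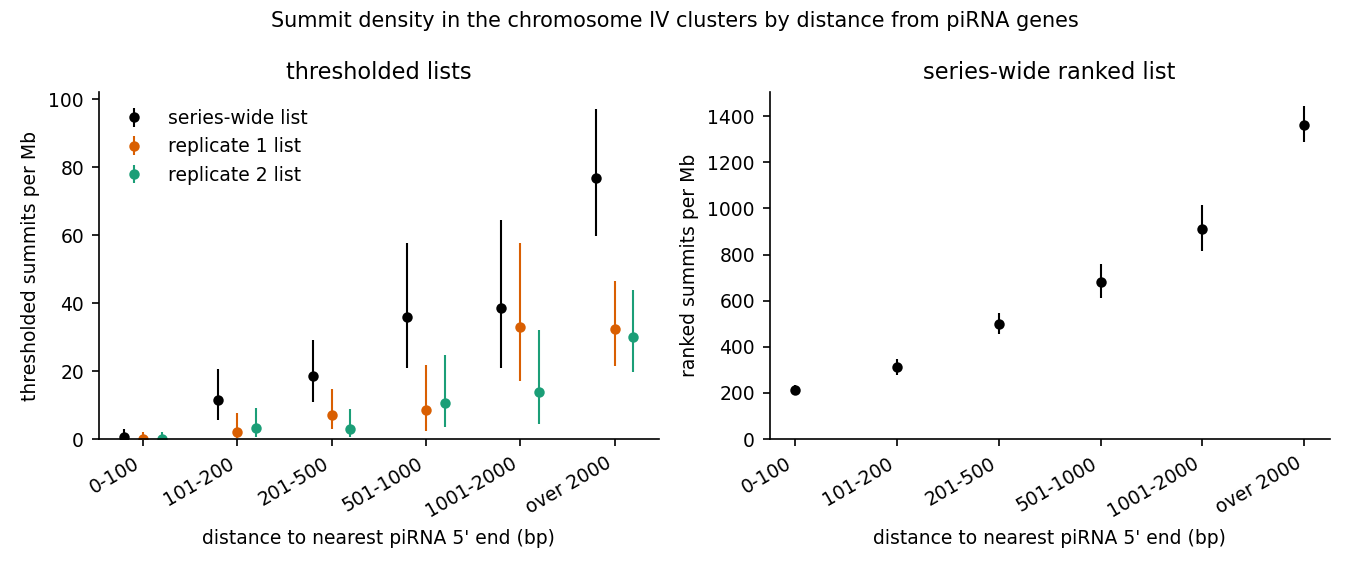
Summits per Mb in the chromosome IV clusters by distance to the nearest piRNA 5′ end, with exact 95% Poisson intervals. The left panel shows the series-wide list and both replicate lists, where the series-wide density was 0.544 per Mb within 100 bp and 76.9 per Mb beyond 2000 bp. The right panel shows the ranked list, with 212 and 1363 per Mb in the same classes.

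The ranked list shows what lies under the threshold, with weaker and less reproducible peaks. A ranked summit lay within 500 bp of 2551 piRNA genes on IV (17.3%), against 455 on the other chromosomes (70.1%). One lay near 57.1% of all genes, 75.4% of the genes that are not piRNA genes and 74.4% of protein-coding genes. The share of piRNA genes was 27.5% in cluster 1, 13.4% in cluster 2 and 50.2% on IV outside the clusters. Genes of other biotypes also had fewer in the clusters, with 618 of 1308 near a ranked summit (47.2%), against 74.4% elsewhere on IV. Protein-coding genes had 46.6% in the clusters and 74.0% elsewhere on IV. The lower share of ranked summits in the clusters was thus not confined to piRNA genes. In the replicates' own ranked lists the share of piRNA genes was 14.2% and 16.9% on IV and 51.2% and 57.0% on the other chromosomes. Ranked summits numbered 312 per Mb in the cluster windows, against 1083 per Mb in the cluster gaps, 1112 per Mb in the rest of IV and 1132 per Mb in the genome. By distance they numbered 212, 311, 501, 682, 911 and 1363 per Mb from the nearest to the farthest class.

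Fewer peaks of any rank were called near the piRNA genes of IV. Where a ranked peak was present, the median of the strongest signal at a gene was 26.5 for piRNA genes on IV and 27.7 for those on the other chromosomes, against 31.4 for protein-coding genes and 32.8 at positions in the cluster gaps. These are the strongest of the peaks at each place, so they also move with the number of peaks there. Over single ranked peaks the median was 23.7 within 500 bp of a piRNA 5′ end on IV and 24.1 on the other chromosomes, against 25.2 in the genome. Signal is the peak caller's own measure of strength, with a scaling that the labels and headers do not state. Of the ranked peaks, 2.55% (30 of 1175) were also in the thresholded list in the cluster windows, against 5.33% (100 of 1876) in the cluster gaps and 2.41% in the genome. Read coverage of these places was not analysed here.

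Base composition moved with the position of the summits. GC was 30.8% in the piRNA windows of the clusters, against 37.0% in the gaps and 35.6% in the rest of IV away from piRNA genes. The windows on the other chromosomes had 34.1%. In the genome without promoters, sequence with under 30% GC in the surrounding 201 bp held 1.25 summits per Mb and sequence with at least 40% GC held 56.7 per Mb. Most of the window sequence thus lay in the class in which summits were rare in the genome.

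Within classes of GC, the difference between windows and gaps shrank in the richest class. The values that follow are without promoters and were chosen after seeing the data. Under 30% GC there was no summit in 1.83 Mb of cluster windows (up to 2.01 per Mb) and none in 0.289 Mb of gaps (up to 12.7 per Mb), against 1.86 per Mb in the rest of IV. At 30 to 35% GC the cluster windows had 2.55 per Mb, the gaps 20.6 and the rest of IV 9.75. At 35 to 40% GC they had 14.3, 37.7 and 16.8 per Mb. At 40% GC and over they had 71.1 per Mb (44.0 to 109), 67.2 per Mb (46.2 to 94.3) and 52.1 per Mb. Of the 29 summits in the cluster windows, 21 were in this richest class.

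Rates from other sequence of the same GC gave a number to set beside those 29 summits. At the rates of the cluster gaps, 4 GC classes gave 51.9 summits (a ratio of 0.559). At the rates of the rest of IV they gave 33.5 (0.865), and at those of the other chromosomes 30.5 (0.950). The replicate lists had 8 and 6 summits in the cluster windows, where the gaps gave 24.1 and 12.6, the rest of IV 8.06 and 10.4 and the other chromosomes 9.70 and 7.84. The ratios to the rates outside the clusters were 0.865 and 0.950 in the series-wide list, 0.993 and 0.825 in replicate 1 and 0.574 and 0.765 in replicate 2, for the rest of IV and the other chromosomes in turn. The ratio to the gaps was the lowest of the 3 in each of these thresholded lists. With 14 GC classes the series-wide ratios were 0.619 to the gaps, 0.907 to the rest of IV and 1.01 to the other chromosomes. In the same order they were 0.382, 1.05 and 0.885 in replicate 1 and 0.494, 0.615 and 0.831 in replicate 2. The ranked peaks did not behave the same way. They numbered 1004 in the windows. With 4 classes the gaps gave 2200, the rest of IV 2415 and the other chromosomes 2590. Ranked peaks were fewer in the windows in each of the 4 GC classes.

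**Figure D3:**
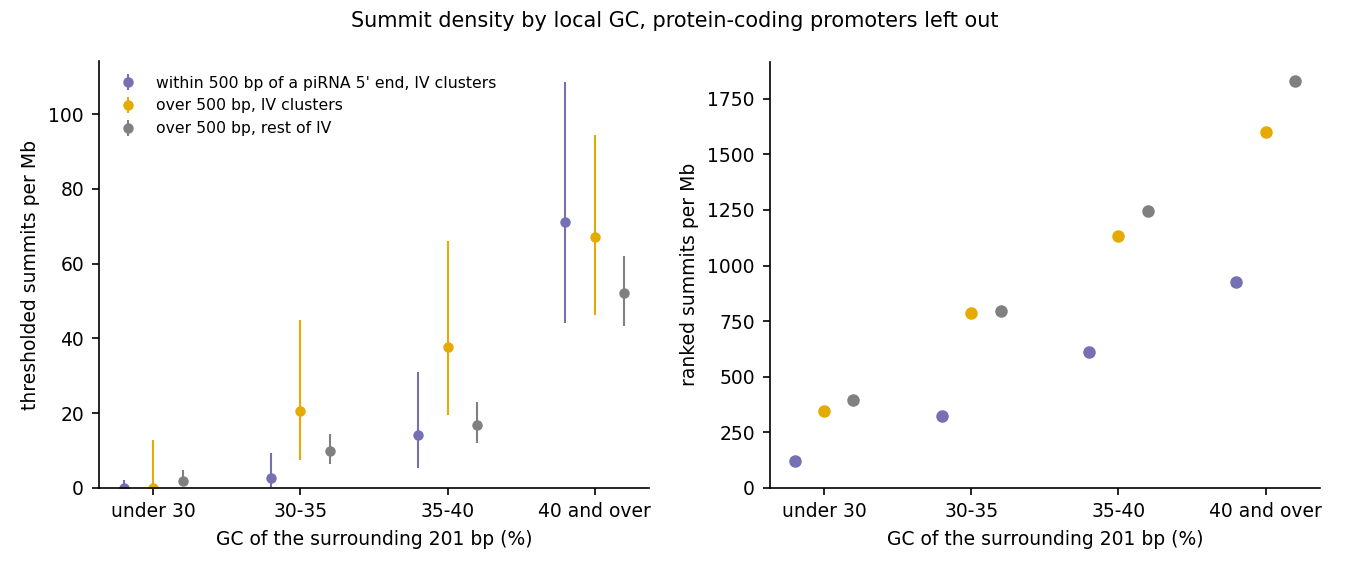
Summits per Mb by GC of the surrounding 201 bp, without protein-coding promoters, for piRNA windows in the IV clusters (purple), the rest of the clusters (yellow) and the rest of IV (grey). Bars in the left panel, of thresholded summits, are exact 95% Poisson intervals, and at 40% GC and over the 3 values are 71.1, 67.2 and 52.1 per Mb. In the right panel, of ranked summits, the piRNA windows are lowest in each class.

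GC also moved with the summits per gene. The 1001 bp around the 5′ end had a median GC of 29.4% on IV and 33.9% on the other chromosomes. Genes on IV with a summit had 33.5%, against 29.4% without one. Under 30% GC, 14 of 8392 genes on IV (0.167%) and 0 of 64 genes on the other chromosomes had a summit. At 30 to 35% GC it was 29 of 5208 (0.557%) against 3 of 345 (0.870%). At 35% GC and over it was 26 of 1114 on IV, 2.33% (1.53 to 3.40%), against 14 of 240 on the other chromosomes, 5.83% (3.23 to 9.59%). The share on IV was higher in each richer class, while the intervals of IV and the other chromosomes overlapped in each GC class. For single bases of IV more than 500 bp from any piRNA 5′ end, the shares within 500 bp of a summit were 0.501%, 1.71% and 4.56% in the same classes, each above that of the piRNA genes of IV. Promoters were not left out of these shares, unlike the densities by GC above. They took 12.3% of the piRNA windows of IV. Away from piRNA genes they took 19.8% of the cluster gaps and 19.2% of the rest of IV.

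Along IV, bins of 100 kb with more piRNA genes had fewer ranked peaks. The 34 bins with 0 piRNA genes averaged 111 ranked summits, the 73 bins with 1 to 9 averaged 113, the 14 bins with 10 to 49 averaged 95.4, the 20 bins with 50 to 199 averaged 75.1 and the 34 bins with 200 to 486 averaged 41.5. Thresholded summits averaged 2.47, 3.14, 2.43, 2.85 and 1.94 per bin in the same order. The protein-coding genes per bin also varied, with 17.3, 22.2, 19.8, 19.8 and 11.8, and their part in the pattern was not tested. The thresholded counts per bin showed little of the gradient that the ranked counts did.

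**Figure D4:**
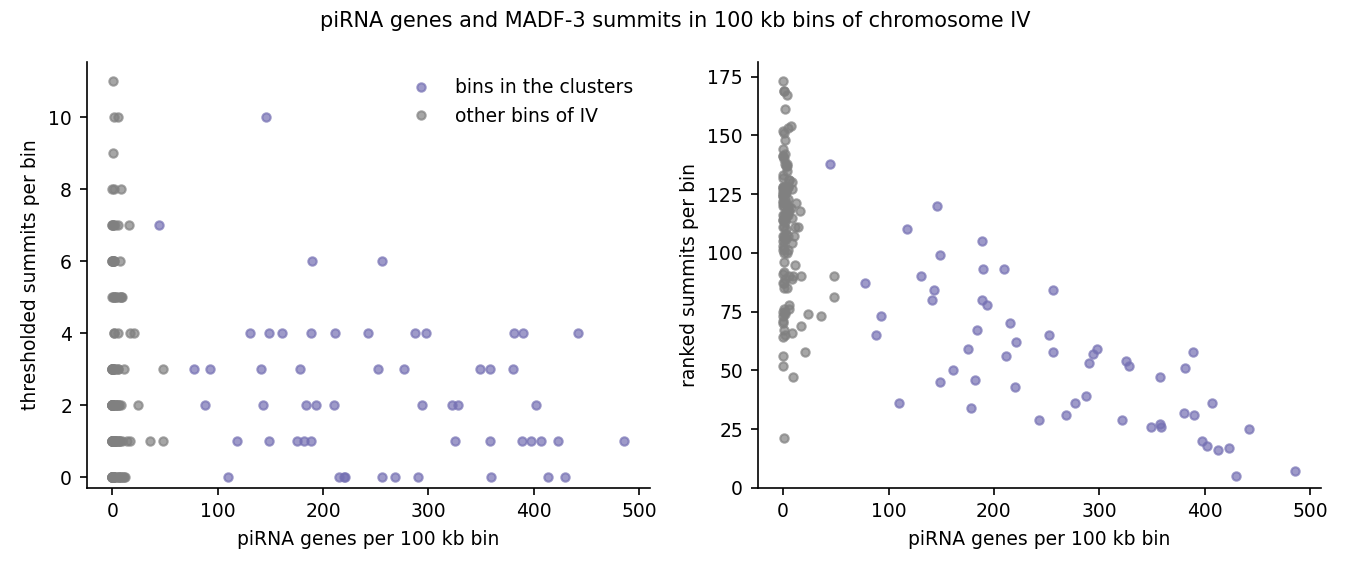
Each point is a 100 kb bin of chromosome IV, with its number of piRNA genes against its thresholded (left) and ranked (right) summits. Bins in the clusters are purple and other bins grey. Ranked summits average 41.5 in bins with 200 to 486 piRNA genes and 111 in bins with 0.

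The 69 piRNA genes of IV with a summit shared 37 summits, and the 17 on the other chromosomes shared 16. On IV, 20 of the 37 summits were near a single piRNA gene and the most crowded was near 8, inside Y105C5A.15. Of the 37, 18 lay between genes, 10 in introns, 8 in coding sequence and 1 in an untranslated exon. A protein-coding 5′ end was within 500 bp of 4 of the 37 and 5 of the 16, against 39.5% of all 2741 summits. The signal on IV ran from 38.0 to 290 with a median of 74.0, close to the 73.1 of the whole list. On IV 17 of 37 summits were upstream of the nearest piRNA gene, made up of 4 of 8 in cluster 1, 7 of 22 in cluster 2 and 6 of 7 outside the clusters. On the other chromosomes 12 of 16 were upstream.

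Few of these summits were called in both replicates' own lists. On IV, 10 overlapped a peak of the replicate 1 list, 8 of the replicate 2 list, 4 of both and 23 of neither, and 26 overlapped the conservative list, made by comparing the true replicates. On the other chromosomes it was 6, 6, 4 and 8, with 14 in the conservative list. Over all 2741 summits, 572 (20.9%) were in both and 2117 (77.2%) in the conservative list. Near the cutoff distance, 12 piRNA genes had their nearest summit at 451 to 500 bp and 10 at 501 to 550 bp.

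The strongest summit near a piRNA gene of IV lay 357 bp downstream of the 5′ end of 21ur-15381, between genes of cluster 2 (IV, 15895958 to 15896177). Its signal was 290 in the series-wide list, rank 95 of 2741, and 130 and 169 in replicates 1 and 2, a mean of 150 ± 27.3 (SD, n = 2). The second lay 142 bp downstream of 21ur-11151, also between genes of cluster 2 (IV, 15530729 to 15530784), with 221 series-wide and 123 and 96.6 in the replicates (110 ± 18.6). Both were in both replicates' own lists, and the nearest protein-coding 5′ ends were 1835 and 2217 bp away. The next strongest on IV was outside the clusters, 448 bp upstream of 21ur-13274, with 143 series-wide and 86.0 and 63.5 in the replicates. It lay 209 bp upstream of aly-3, which encodes a protein of the Aly/REF family of mRNA export factors.

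The sequence at the summit beside 21ur-15381 was a tandem repeat. The 101 bases centred on both strongest summits are shown in the next lines for comparison, with TTCNNGAA in capitals, letters that were searched after the sequence had been seen and that read the same on both strands.
Summit beside 21ur-15381 (chrIV:15896018-15896118, plus strand): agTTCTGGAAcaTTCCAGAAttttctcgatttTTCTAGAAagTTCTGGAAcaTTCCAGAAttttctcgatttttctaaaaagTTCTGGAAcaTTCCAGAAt
Summit beside 21ur-11151 (chrIV:15530695-15530795, plus strand): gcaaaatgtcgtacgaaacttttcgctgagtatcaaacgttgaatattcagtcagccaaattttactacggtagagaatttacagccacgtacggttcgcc
Beside 21ur-15381 the bases were 98.4% identical to themselves at a shift of 40 bp and held TTCNNGAA 7 times. As many were found in 0.0398% of the 173206 stretches of 101 bp of IV, and at least 1 in 7.39%. The window beside 21ur-11151 held none. A match is a description of letters and not of a bound factor. The part of the repeat in the signal was not tested.

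The other 12 of the 15 strongest summits on IV had series-wide signals between 82.7 and 103. At 21ur-6915 the signal was 103, with 40.9 and 57.6 in the replicates, 405 bp upstream of the gene. At 21ur-2814, 1 of 4 piRNA genes near the same summit, it was 95.1, with 43.7 and 45.0 in the replicates, 124 bp upstream. Both genes have GTTTCA in the lines above, but not CTGTTTCA. The replicate values differed more at 21ur-6915 (SD 11.8) than at 21ur-2814 (SD 0.905). At 21ur-15698 the signal was 94.0, with 54.6 and 43.4 in the replicates. At 21ur-4820 it was 84.5, with 39.3 and 47.6, inside coding sequence of Y105C5B.5. At 21ur-14135 it was 88.2, with 48.3 and 41.5, in an untranslated exon of ugt-24, named as a UDP-glucuronosyltransferase gene. At 21ur-12373 the summit was 35 bp upstream of the protein-coding gene M18.6, with 84.6 series-wide and 36.3 and 46.1 in the replicates.

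Some of the summits had no peak in 1 replicate or lay beside another small RNA gene. At 21ur-53 the signal was 99.6 series-wide and 34.5 in replicate 2, with no peak in the replicate 1 ranked list and none in any of the replicate or conservative thresholded lists. At 21ur-10279 it was 93.3 series-wide and 47.6 in replicate 1, with no peak in the replicate 2 ranked list. A tRNA gene lay within 500 bp of the summits at 21ur-53, 21ur-5229 (97.7 series-wide) and 21ur-4266 (82.7), and a snoRNA gene near that at 21ur-7591 (83.0). The remaining one of the 15, at 21ur-4179, had 86.9 series-wide and 34.4 and 52.9 in the replicates. In all, 9 of the 37 summits near IV piRNA genes (24.3%) had a tRNA, snoRNA, snRNA or miRNA gene within 500 bp, against 42 of the other 433 summits on IV (9.70%). The counts among the 37 were 5 near tRNA genes, 3 near snoRNA genes, 1 near an snRNA gene and 0 near miRNA genes. Whether these summits belong to those genes was not tested.

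**Figure D5:**
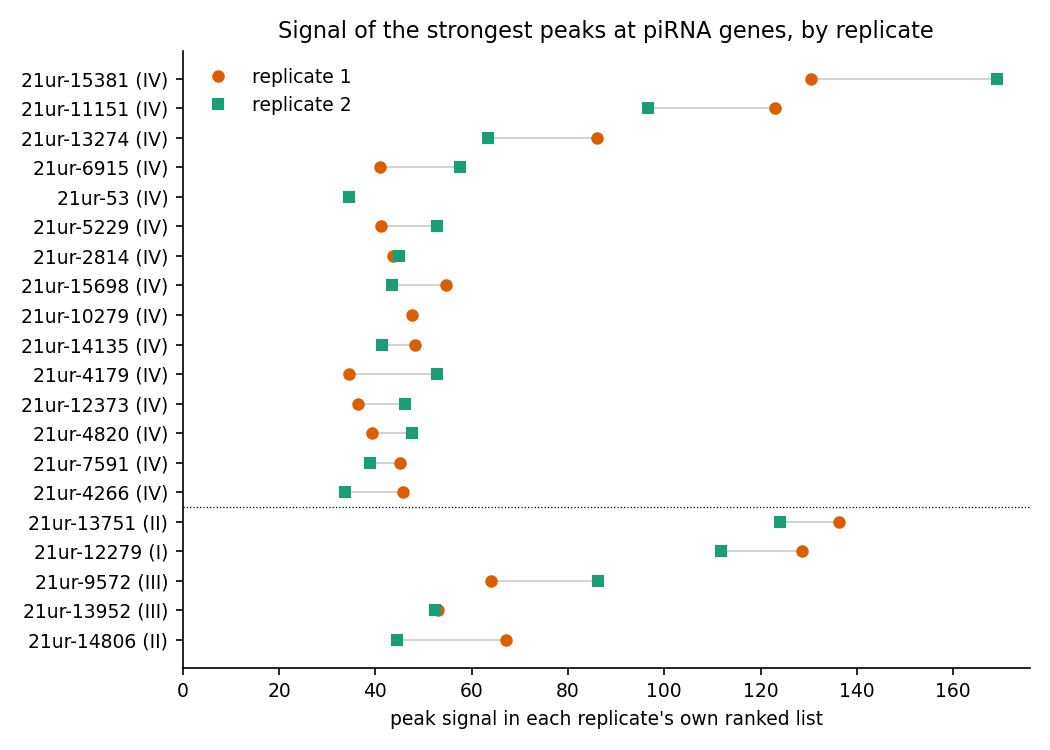
Signal in each replicate's own ranked list at the 15 strongest summits near piRNA genes on IV and, under the dotted line, the 5 strongest on the other chromosomes, ordered by series-wide signal. Circles are replicate 1 and squares replicate 2. A missing symbol, at 21ur-53 and 21ur-10279, means no overlapping ranked peak.

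Of the 5 strongest summits near piRNA genes on the other chromosomes, 4 lay inside protein-coding genes and the remaining one upstream of vig-1. At 21ur-13751 on II the summit lay 113 bp upstream (II, 1320562 to 1320642), with 258 series-wide and 136 and 124 in the replicates (130 ± 8.77, n = 2). It was 417 bp upstream of vig-1, a relative of the Drosophila RNA-binding protein VIG of the RNA interference complex. At 21ur-12279 on I it was 104 bp upstream, with 235 series-wide and 129 and 112 in the replicates (120 ± 11.95), and 4 bp inside atp-1, which encodes the alpha subunit of mitochondrial ATP synthase. At 21ur-9572 on III it was 83 bp upstream, in an intron of klp-7, a kinesin that shortens microtubules, with 156 series-wide and 64.1 and 86.3 in the replicates. At 21ur-13952 on III it was 189 bp downstream, in an untranslated exon of C36E8.4, with 116 series-wide and 53.0 and 52.4 in the replicates. At 21ur-14806 on II it was 486 bp upstream, in an intron of T24B8.3, with 114 series-wide and 67.2 and 44.5 in the replicates.

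Just 3 summits lay within 20 bp of a piRNA 5′ end. They were at 21ur-15384 on V (6 bp upstream, signal 75.6), 21ur-12255 on IV outside the clusters (10 bp upstream, 75.2) and 21ur-7377 in cluster 1 (11 bp downstream, 68.1). The last was the single summit within 100 bp of a piRNA 5′ end in the clusters. Its signals in the replicates were 30.2 and 28.6, and neither replicate's own thresholded list had it. Of the 86 piRNA genes near a summit, 32 had it within 200 bp and 6 within 100 bp.

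The share of piRNA genes of IV with the Ruby motif did not separate those near a summit from the others. CTGTTTCA was upstream of 28 of the 69 piRNA genes of IV with a summit, 40.6% (28.9 to 53.1%), against 35.1% of those without. GTTTCA was upstream of 75.4% with a summit and 66.1% without. On the other chromosomes 0 of the 17 genes with a summit had CTGTTTCA, a share of up to 19.5%, against 7.12% of those without. CTGTTTCA was in the 201 bp around 3 of the 37 summits near IV piRNA genes (8.11%), against 3 of the other 433 summits on IV (0.693%) and 16 of the 2271 on the other chromosomes (0.705%). Among sequence not chosen for summits it was in 22.6% of 201 bp stretches centred within 500 bp of a piRNA 5′ end in the clusters and in 6.18% of all such stretches of IV.

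The protein-coding genes of the piRNA pathway were looked at as a list of 26, of which 25 matched the annotation and 4 had a summit within 500 bp (16%), against 6.26% of all protein-coding genes. None of the 9 genes of piRNA transcription had one, including prde-1, snpc-4, tofu-4 and tofu-5. At a share of 6.26%, 9 genes are too few for this to be read as a lack. Of the processing genes, a summit was at erh-2, which encodes a subunit of the PETISCO complex, on which piRNA precursor processing depends. Its summit was 75 bp downstream of the 5′ end, with 78.1 series-wide and 40.5 and 41.0 in the replicates. Of the effector genes, 3 had a summit. At hrde-1, the nuclear Argonaute of inherited silencing, it was 230 bp upstream, with 131 series-wide and 56.9 and 78.8 in the replicates. At pid-2, a germ granule protein gene, it was 339 bp downstream, with 90.2 series-wide and 38.3 and 35.4. At prg-1 itself it was 114 bp downstream, with 57.0 series-wide and 21.9 and 35.7. The replicates' own thresholded lists each reached 1 of the 25 genes, against 3.02% and 2.85% of all protein-coding genes. With 1 gene in each, these lists cannot show whether the share of the pathway genes was higher. The series-wide 16% rests on 4 genes and was not tested against 6.26%.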

How the data were processed

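Both samples were biological replicates of MADF-3 ChIP-seq in young adults. The authors deposited peak lists on build ce11, per the labels; no source used here names the aligner or peak caller. The signal of a peak is the peak caller's value as deposited by the authors. The score, which the authors derived from the IDR (at most 1000), was at least 830 in the series-wide thresholded list. In the ranked lists the authors give the IDR as its −log10, with a cap of 5. All 2741 thresholded peaks were in the series-wide ranked list used here. Peaks were called on the alignments of both replicates for the series-wide list and of each replicate for its own, per the file headers, so a place in the series-wide list is not agreement between replicates.

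Summits were placed by the deposited offset, with 1-based coordinates. Genes came from Ensembl release 115 and sequence from RefSeq, both of assembly WBcel235. The 5′ end of a gene was read from its annotated strand. Clusters were runs of at least 5 bins of 100 kb with at least 50 piRNA genes, joined over 1 bin. A summit's signal in a replicate is that of the strongest peak it overlaps in the replicate's ranked list. Depth is unknown, since no list gives reads. Named genes were those closest to the 15 strongest summits at piRNA genes on IV and to the 5 strongest elsewhere, a protein-coding gene within 500 bp, pathway genes with a summit, and genes in counts of 5 or fewer; host genes were named beside them. The members and lists were chosen with earlier results of these data known, and no p-value was computed. Counting was tested on simulated data. Python 3.11.15, numpy 2.4.6, pandas 2.3.3, SciPy 1.17.1 and matplotlib 3.10.9 were used.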

Additional observations from a re-analysis of the deposited data

How the results depend on the processing

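The direction of both main differences held in each of the 11 settings that gave a ratio, the main setting among them. Many of the settings share peaks, and none matched GC. With 4 GC classes and without promoters, the series-wide ratio of the cluster windows was 0.559 to the gaps. It was 0.865 to the rest of IV and 0.950 to the other chromosomes. With 14 GC classes the same 3 ratios were 0.619, 0.907 and 1.01. The density in windows of IV piRNA genes over that in the cluster gaps was 0.152, and 0.0889 to 0.337 over 11 settings. The share of piRNA genes near a summit on IV over that on the other chromosomes was 0.179, and 0.0819 to 0.284 over 11 settings. The levels themselves moved with the list and window. The share on IV (0.469%) was 0.401% with the conservative list, 0.238% with the 1370 stronger peaks, 0.150% at 200 bp, 1.31% at 1000 bp, 0.639% by peak overlap and 17.3% with ranked peaks, and 0.0884 to 0.116% with 1 replicate left out, which here means the other replicate's own list. The share on the other chromosomes (2.62%) was 1.69% with the stronger peaks, 1.54% at 200 bp, 4.62% at 1000 bp, 2.09% without promoters and 70.1% with ranked peaks, and 1.08% with either replicate left out. The density in the windows (8.78 per Mb) was 7.35 with the conservative list, 5.22 with the stronger peaks, 5.03 at 200 bp, 11.5 at 1000 bp, 9.96 by overlap, 365 with ranked peaks and 7.96 inside clusters, and 1.90 to 2.37 with a replicate left out. The density in the gaps (57.7 per Mb) was 46.7, 32.9, 43.6, 65.8, 61.8 and 1083 under the same 6 settings, 36.7 without promoters and 51.8 with clusters from bins of 20 genes, and 21.4 to 26.0 with a replicate left out. Without promoters or coding sequence, chosen after seeing the data, the windows had 7.92 and the gaps 38.2 per Mb. The cause of these shifts was not tested. No paired analysis was possible because the design has 1 group. The GC classes, the share of ranked peaks in the thresholded list, the core GTTTCA and the repeat letters were also chosen after seeing the data. Depth and read placement were not analysed here.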
